A study of Mus musculus with 8 samples.

Results

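The 32 genes described here code for parts of the sarcomere, the repeating contractile unit of striated muscle, and for proteins that muscle makes under stretch, stress or wasting. They were taken from a fixed list, each read from the probe set of highest mean that carries its symbol alone, and all 32 of the 22180 genes named on the array in this way were found. The tissue was brown fat (brown adipose tissue), taken from 8 male mice of the C57BL/6J strain and hybridised to Affymetrix Mouse Gene 2.0 ST arrays, which use 1 colour. The study compared 3 wild-type (WT) mice with 5 mice labelled Abhd15 KO, whose samples are called the labelled KO arrays here. All mice were on normal chow, were 14 weeks old, and had eaten for 1 h after an overnight fast. Litter, cage, harvest day and the deleted part of the gene are not named in the labels or design text. The p-values set differences and slopes against the spread between these samples. They treat the mice as independent, which the labels do not state.

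In a sarcomere, thin filaments of actin slide along thick filaments of myosin. The Z disc anchors the thin filaments, and titin spans from the Z disc to the middle of the thick filament. Muscle that is stretched, injured or starved turns on further genes at these structures. Among them are ankyrin repeat proteins that bind titin, small heat shock proteins, and the ubiquitin ligases MuRF1 (gene Trim63) and atrogin-1 (gene Fbxo32), which mark muscle proteins for breakdown and are known to rise in fasted muscle through FOXO transcription factors and glucocorticoids. Brown fat, which makes heat, is not striated, but brown adipocytes and skeletal muscle fibres are known to share precursor cells in the embryo.

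The promoters of Acta1, Trim63, Ankrd2 and Hspb7 are shown. Acta1 was taken because it lay closest to the shared signal among the genes with a slope near 1. The other genes are muscle stress genes that departed from that signal in several arrays. Each is the 250 bases before the annotated start from RefSeq, GRCm38.p6, 5′ to 3′ on the gene's strand. Capitals mark matches on either strand to a CArG box, to the TATA box TATAAA or to the FOXO motif GTAAACA, and both strands were searched.
Acta1: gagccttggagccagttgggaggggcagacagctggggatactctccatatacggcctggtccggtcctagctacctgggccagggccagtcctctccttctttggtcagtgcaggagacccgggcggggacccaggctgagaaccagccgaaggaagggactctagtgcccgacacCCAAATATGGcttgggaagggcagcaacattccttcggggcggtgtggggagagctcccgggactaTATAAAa
Trim63: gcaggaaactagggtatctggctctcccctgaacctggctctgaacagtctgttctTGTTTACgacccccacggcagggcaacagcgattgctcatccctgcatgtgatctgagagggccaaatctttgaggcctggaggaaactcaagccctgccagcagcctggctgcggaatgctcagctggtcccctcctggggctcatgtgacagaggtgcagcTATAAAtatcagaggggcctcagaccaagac
Ankrd2: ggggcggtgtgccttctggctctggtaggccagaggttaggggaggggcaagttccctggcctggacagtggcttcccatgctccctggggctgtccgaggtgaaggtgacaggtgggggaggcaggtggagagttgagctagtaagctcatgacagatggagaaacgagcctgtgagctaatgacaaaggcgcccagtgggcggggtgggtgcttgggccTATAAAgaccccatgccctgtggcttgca
Hspb7: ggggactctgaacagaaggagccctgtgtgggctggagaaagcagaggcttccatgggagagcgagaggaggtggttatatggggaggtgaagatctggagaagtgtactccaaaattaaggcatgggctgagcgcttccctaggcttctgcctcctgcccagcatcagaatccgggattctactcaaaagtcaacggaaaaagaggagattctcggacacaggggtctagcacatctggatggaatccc
These windows lie at chr8:123894776-123895025 on the minus strand for Acta1, and on the plus strand at chr4:134314870-134315119 for Trim63, chr19:42035777-42036026 for Ankrd2 and chr4:141420529-141420778 for Hspb7. Of the 32 genes, 23 had an entry, and the first entry was used where a gene had several. The GTAAACA motif was found in Trim63 among these 23, at −194 to −188, and in 3.2% of all 32851 promoter windows of this length. The CArG box, the site of serum response factor, was found in 3 of the 23 (Acta1, Asb5 and Ldb3) and in 1.5% of all windows, and MEF2 motifs in 4 of the 23 (Ttn, Myoz2, Pvalb and Xirp2) and in 2.9%. The E-box CANNTG, the site of MyoD and many other factors, was found in 20 of the 23 and in 66.2% of all windows, and TATAAA in 5 of the 23 and in 12.4%. E-boxes are not in capitals, and no CArG, FOXO, MEF2 or TATA match was found in the Hspb7 window. A match is a run of letters and no evidence of binding.

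The targeted gene was no lower under the KO label. Abhd15 (probe set 17253297) had a log2 level of 6.01 ± 0.19 in WT (SD, n = 3) and 6.12 ± 0.27 among the labelled KO arrays (SD, n = 5). Its place relative to the deletion is unknown here, so group directions rest on the labels. The tissue read as brown fat in every array, with Ucp1 between 12.51 and 12.89 log2. Array medians lay between 3.00 and 3.04, and array-to-array correlations over all probe sets between 0.964 and 0.975. Below 2.88 log2, the dim limit set from olfactory and vomeronasal receptor genes, a value was taken as not above background. A gene was tested if 3 or more arrays exceeded the limit, which kept 13223 genes and 31 of the 32 genes described here. Ankrd1, a titin-binding ankyrin repeat protein of heart and stressed muscle, was above the limit in 1 array only (3.16 in WT replicate 3) and was not tested.

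The sarcomere genes rose and fell together from mouse to mouse within both groups. Among the 24 genes above the dim limit in all 8 arrays, the range within a group reached 4.85 log2 in WT (Trim63) and 3.69 in the labelled KO arrays (Myot), with medians of 2.99 and 2.64. Acta1, the actin of skeletal muscle thin filaments, read 10.49, 9.32 and 7.49 log2 in WT replicates 1 to 3. In the labelled KO arrays it read 9.01, 6.71, 8.57, 9.69 and 8.96 in replicates 1 to 5. WT replicate 1 was the highest array, Abhd15 KO replicate 2 the lowest and WT replicate 3 the next lowest, so each group held both high and low arrays. Of the 31 tested genes, 30 were highest in WT replicate 1, and the exception was Myl2, a slow and heart myosin light chain, which was highest in Abhd15 KO replicate 4. Of the 24 genes above the dim limit throughout, the lowest array was Abhd15 KO replicate 2 in 20 and WT replicate 3 in 4 (Tpm2, Myoz1, Mb and Trim63). The other 7 (Myl2, Myoz2, Ampd1, Xirp1, Xirp2, Asb5 and Ankrd2) fell below the limit in 1 or more arrays, so their lowest readings are not measured levels and have no order. Measured by the SD over the 8 arrays, Trim63 (1.71) and Ankrd2 (1.65) had the largest SDs of all 13223 tested genes. The median SD over all tested genes was 0.23.

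**Figure D1:**
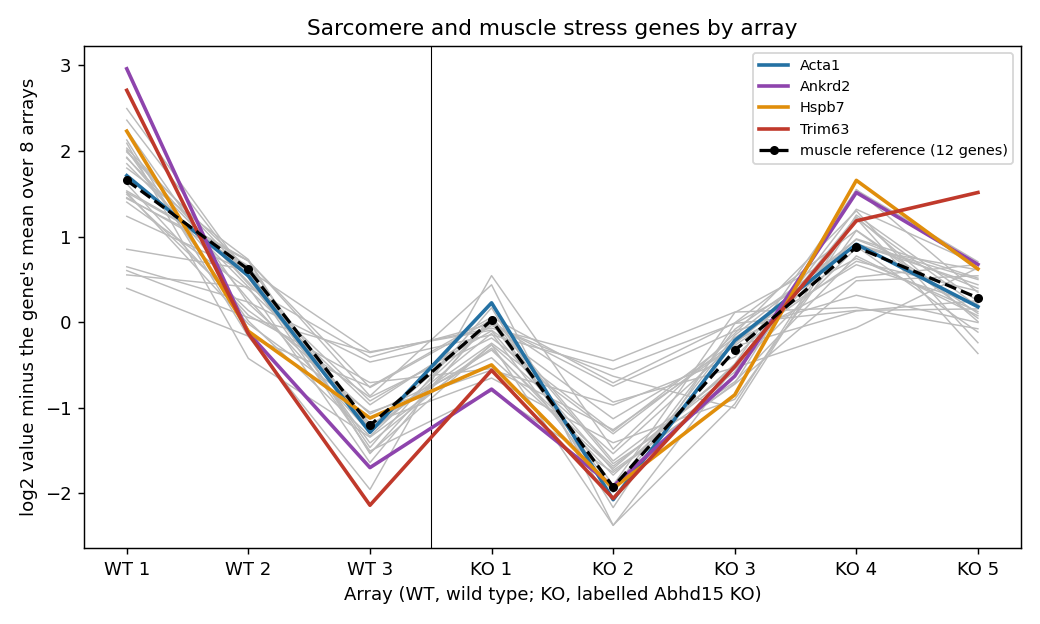
Each line joins the log2 values of 1 tested gene in the 8 arrays after its own mean was subtracted (y axis, log2), with WT arrays left of the vertical line and labelled KO arrays right of it. Coloured lines are Acta1, Trim63, Ankrd2 and Hspb7, grey lines are the other tested genes, and the dashed line is the mean of 12 muscle genes outside the list, which runs from 1.66 in WT replicate 1 to −1.92 in Abhd15 KO replicate 2.

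To put a number on the shared signal without using the genes themselves, 12 genes of fast skeletal muscle outside the list were averaged after each gene's mean was subtracted. They were the myosins Myh1, Myh2 and Myh4, the troponins Tnnt3, Tnni2 and Tnnc2, the muscle creatine kinase Ckm, the calcium pump Atp2a1, the calcium store proteins Casq1 and Ryr1, and the glycogen and sugar enzymes Pygm and Eno3. This muscle reference was 1.66, 0.62 and −1.21 log2 in WT replicates 1 to 3. It was 0.02, −1.92, −0.33, 0.88 and 0.28 in the labelled KO arrays, replicates 1 to 5. Each gene was then fitted on it, and its slope says by how many log2 units the gene rose per 1 log2 of the reference. Each reference gene, fitted on the mean of the other 11, had a slope between 0.84 (Ckm) and 1.30 (Myh1), with residual SDs from 0.11 (Atp2a1) to 0.67 (Myh1).

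The slope was positive in all 31 tested genes, and 27 of them passed an adjusted p of 0.05 with limma. Of the 13211 genes in that fit, 0.522% passed with a positive slope, which is 69 genes, 42 of them outside the list. With a negative slope 0 genes passed with limma, and 330 had an unadjusted p under 0.05. The median slope of the 31 was 1.03, against −0.01 over all tested genes. The 4 genes that did not pass were Tpm2, Des, Myl2 and Xirp1, at limma adjusted p of 0.0513, 0.125, 0.321 and 0.165. The count rested in part on the most extreme arrays. It was 15 when WT replicate 1 was left out, and when Abhd15 KO replicate 2 was left out as well it was 0 with limma, with 30 of 31 at an unadjusted p under 0.05 and a median slope of 0.98. The genes were chosen for being muscle genes and share the RNA of each array with the reference, so slopes describe these 8 mice.

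The slopes of thin and thick filament genes lay close to 1 for most skeletal isoforms. Acta1 had a slope of 1.04 with a 95% confidence interval of 0.93 to 1.16 and a residual SD of 0.12 log2. Neb, whose giant product nebulin runs along the thin filament, read 9.39, 7.73 and 6.17 in WT and 7.33, 5.47, 7.31, 8.43 and 7.86 in the labelled KO arrays, with a slope of 1.06 (0.90 to 1.21). Ttn, the gene of titin, read 9.38, 7.38 and 6.03 in WT and 7.36, 5.41, 7.28, 8.28 and 7.80 in the labelled KO arrays, with a slope of 1.05 (0.84 to 1.25). Both followed the order of Acta1 except that Abhd15 KO replicate 5 stood above WT replicate 2 and Abhd15 KO replicate 1. The myosin binding proteins Mybpc1 and Mybpc2 had slopes of 1.02 and 1.12, and Mylpf, the regulatory light chain of fast fibres, 1.09 (0.84 to 1.34). Over the 8 arrays Mybpc1 ranged from 4.74 to 8.34 log2, Mybpc2 from 3.10 to 7.25 and Mylpf from 3.60 to 7.50. Lmod2, a leiomodin that builds thin filaments in heart and muscle, had a slope of 1.08 (0.73 to 1.43) but a wider residual SD of 0.58. It read 4.64 in WT replicate 2 and 6.61 in Abhd15 KO replicate 4, where the reference differed by far less (0.62 and 0.88).

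Some filament genes had shallow slopes on the reference. The tropomyosin genes Tpm1 and Tpm2, which smooth muscle and many other cells also use, had slopes of 0.33 (0.21 to 0.44) and 0.69 (0.41 to 0.97), and ranged from 4.81 to 6.01 and from 4.33 to 7.02 log2. Myl1, the essential light chain of fast fibres, ranged from 6.87 to 8.17 only, with a slope of 0.37 (0.26 to 0.48) and the smallest residual SD of the 31 genes, 0.09. Myl2 read 3.59, 3.03 and 2.44 in WT and 3.25, 2.49, 3.19, 4.27 and 3.30 in the labelled KO arrays. It was above the dim limit in 6 arrays, and its slope was 0.41 (0.17 to 0.65). The confidence interval of the slope lay below 1 in 10 of the 31 genes.

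Z disc and intermediate filament genes had slopes from 0.26 to 1.24, and 7 of 8 passed with limma. Myot, the gene of the actin-binding protein myotilin, read 8.51, 7.02 and 5.07 in WT and 6.21, 4.10, 5.95, 7.80 and 7.15 in the labelled KO arrays. Its slope of 1.24 had a confidence interval of 1.08 to 1.41, and it was the only one of the 13211 genes (0.00757%) whose interval lay above 1. The alpha-actinins Actn2 and Actn3, which crosslink actin at the Z disc, had slopes of 1.05 and 1.04, and ranged from 3.71 to 7.66 and from 5.58 to 9.29 log2. Tcap, the cap of titin, and the calcineurin-binding Myoz1 and Myoz2 had slopes of 0.96, 1.03 and 1.06. Tcap ranged from 3.67 to 7.41, Myoz1 from 3.22 to 6.72 and Myoz2, above the dim limit in 6 arrays, from 2.60 to 6.50. Ldb3, a PDZ and LIM domain protein, reached 0.50 (0.34 to 0.67) over a range of 2.99 to 4.97 log2. Des, the gene of the intermediate filament desmin that smooth muscle also makes, had the lowest slope, 0.26 (0.14 to 0.38), and read between 7.71 and 8.76. Of 10 tested smooth muscle genes, such as Acta2, Myh11 and Tagln, 0 passed for the slope with limma, and their slopes ranged from −0.15 to 0.24. Synpo2, Smtn and Myl9 had the lowest p in that list, with slopes of 0.24, −0.14 and −0.15, and Synm, Mylk and Tagln the largest residual SDs, 0.54, 0.36 and 0.35.

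Genes of muscle metabolism and calcium handling all passed for the slope with limma. Ampd1, the AMP deaminase of muscle, had a slope of 0.86 (0.70 to 1.03) and Pvalb, the calcium buffer of fast fibres, 0.94 (0.76 to 1.11). Cacna1s, the voltage sensor of the surface membrane, and Trdn, which ties the calcium release channel to its store, had slopes of 0.77 and 0.73. Ampd1 ranged from 2.70 to 5.87 log2, Pvalb from 5.06 to 8.04, Cacna1s from 3.31 to 5.86 and Trdn from 4.44 to 7.21. Mb, the gene of the oxygen store myoglobin, read 7.48, 5.94 and 4.91 in WT and 5.40, 4.99, 5.55, 6.93 and 6.48 in the labelled KO arrays. Its slope was 0.73 (0.46 to 1.00), and its departures from the line were −0.47 log2 in WT replicate 2 and −0.58 in Abhd15 KO replicate 1.

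**Figure D2:**
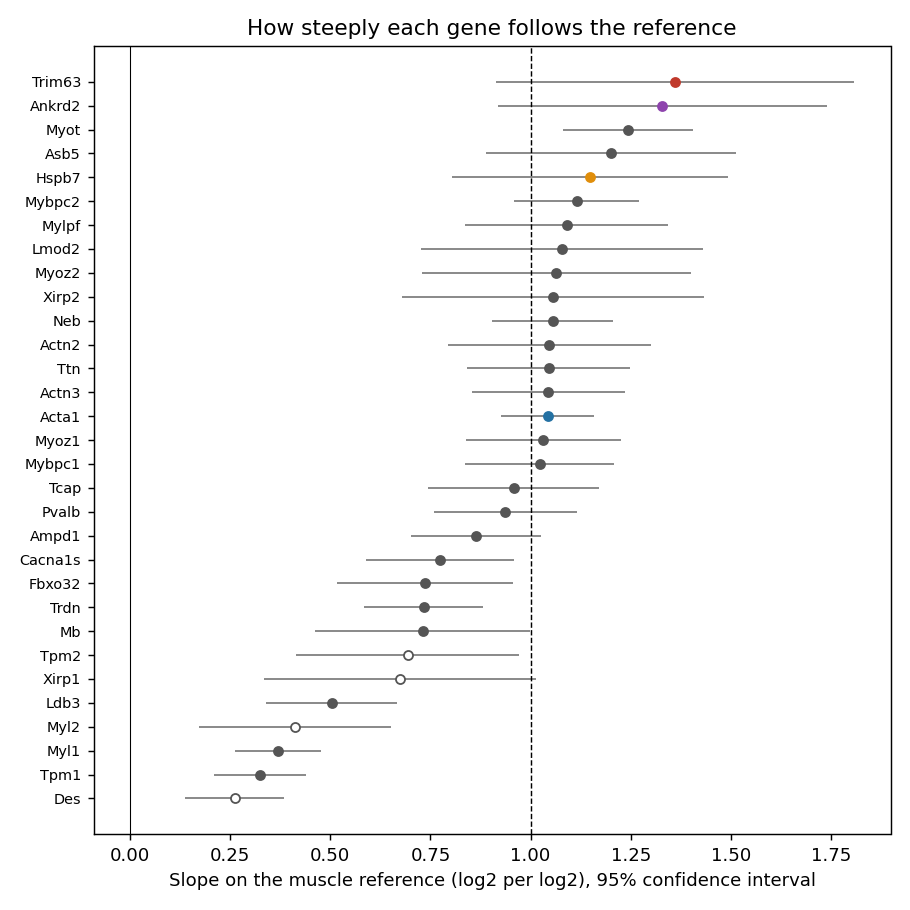
Slope of each of the 31 tested genes on the muscle reference (x axis, log2 per log2) with its 95% confidence interval from limma. Filled points passed an adjusted p of 0.05, open points did not, and the dashed line marks a slope of 1. Trim63 and Ankrd2 stand at the top with the widest intervals, and Des stands at the bottom.

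Over the 8 arrays Trim63 had the steepest slope of all 13211 genes and the largest scatter of the 31. It read 8.31, 5.47 and 3.46 log2 in WT and 5.04, 3.54, 5.08, 6.79 and 7.12 in the labelled KO arrays, replicates 1 to 5. It was thus high in WT replicate 1 and in Abhd15 KO replicates 4 and 5, and the groups overlapped over most of their range. Its slope was 1.36 (0.91 to 1.81, limma adjusted p = 0.0151). Its residual SD of 0.75 log2 compares with a median of 0.31 over the 31 genes, 0.27 over the reference genes and 0.23 over all tested genes. Its departures from the line were 0.45, −0.97 and −0.50 log2 in WT replicates 1 to 3. They were −0.59, 0.56, −0.07, −0.01 and 1.13 in Abhd15 KO replicates 1 to 5. Leaving out WT replicate 1, WT replicate 3 or Abhd15 KO replicate 2 ended the call, with adjusted p of 0.186, 0.0816 and 0.0537 and slopes of 1.22, 1.27 and 1.61. Over 20 alternatives the limma adjusted p ranged from 0.00176 to 0.761. The slope of Trim63 ranked 2 among the tested members without WT replicate 1, WT replicate 3 or Abhd15 KO replicate 2. Without Abhd15 KO replicate 5 its residual SD was 0.61, below that of Ankrd2 (0.73).

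Ankrd2, a titin-binding protein that skeletal muscle makes more of when stretched, read 7.25, 4.17 and 2.59 in WT and 3.51, 2.37, 3.66, 5.81 and 4.97 in the labelled KO arrays. It was below the dim limit in WT replicate 3 and Abhd15 KO replicate 2, so its full range was not measured. Its slope was 1.33 (0.92 to 1.74, limma adjusted p = 0.0107), the next steepest after Trim63. Its departure from the line was 0.76 log2 in WT replicate 1, and −0.94 and −0.81 in WT replicate 2 and Abhd15 KO replicate 1. In Abhd15 KO replicate 2 it was 0.64, but that rests on a reading below the dim limit and is no measured departure. Leaving out WT replicate 1 (adjusted p = 0.107, slope 1.09) or WT replicate 3 (0.0549, slope 1.31) ended the call, and the adjusted p ranged from 0.000394 to 0.861 over 19 alternatives with limma.

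Hspb7, a small heat shock protein of heart and skeletal muscle that binds filament proteins, read 7.99, 5.65 and 4.64 in WT and 5.26, 3.82, 4.91, 7.42 and 6.38 in the labelled KO arrays. Abhd15 KO replicate 4 was close to the highest array, WT replicate 1, although its reference was 0.88 against 1.66 there. The slope of Hspb7 was 1.15 (0.80 to 1.49, limma adjusted p = 0.00873), which 4 genes exceeded (Trim63, Ankrd2, Myot and Asb5). Its departure from the line was 0.65 log2 in Abhd15 KO replicate 4, and −0.81, −0.53 and −0.47 in WT replicate 2 and Abhd15 KO replicates 1 and 3. Leaving out WT replicate 1 (adjusted p = 0.121, slope 1.05) or Abhd15 KO replicate 2 (0.0663, slope 1.27) ended the call, and the adjusted p ranged from 0.000682 to 0.812 over 20 alternatives with limma.

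**Figure D3:**
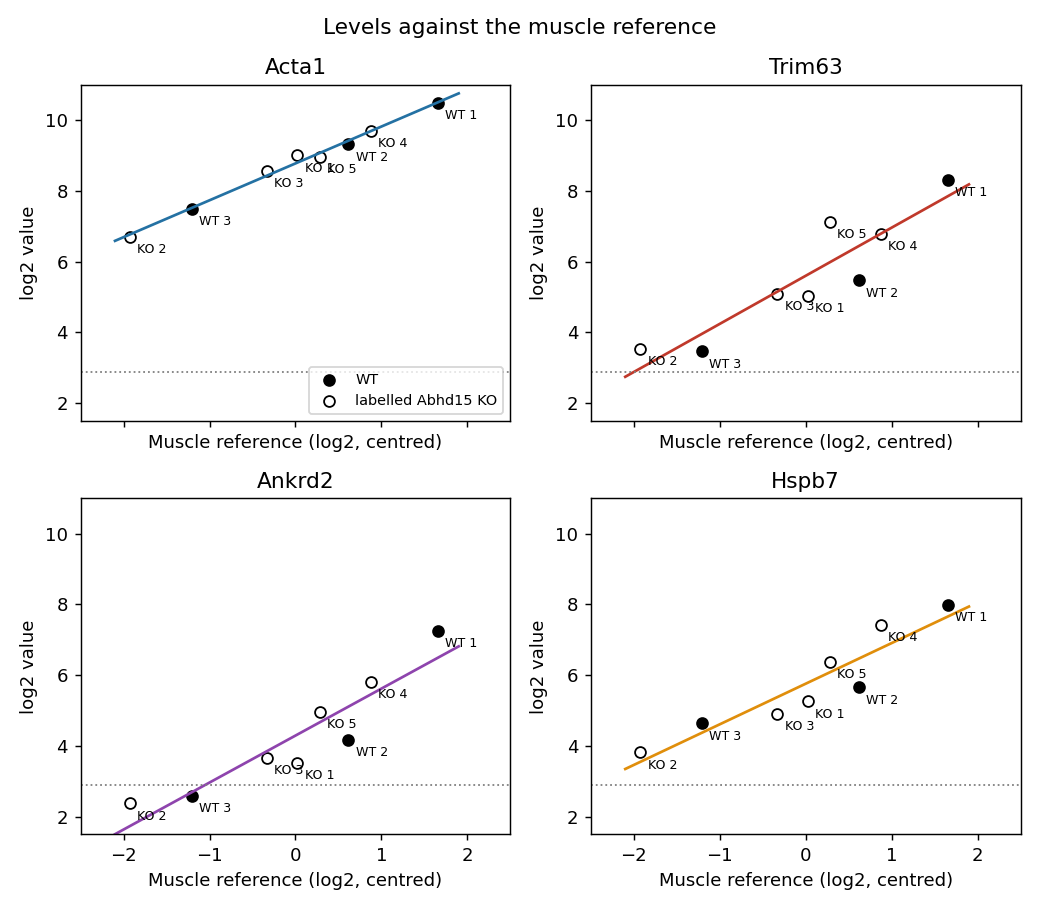
Log2 level of Acta1, Trim63, Ankrd2 and Hspb7 (y axis) against the muscle reference (x axis, log2, centred) in 3 WT arrays (filled) and 5 labelled KO arrays (open), with the fitted line and the dim limit of 2.88 dotted. Acta1 stays within 0.20 log2 of its line, while WT replicate 2 falls clearly below the line of the other genes and Abhd15 KO replicate 5 lies 1.13 above that of Trim63.

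The steeper slopes of these genes were not told apart from that of Acta1. Their scatter about the line was larger, but Acta1 was chosen for lying close to its line. Among the 31 genes Trim63 (residual SD 0.75) and Ankrd2 (0.68) scattered most, while Xirp2 (0.62) and Lmod2 (0.58) scattered more than Hspb7 (0.57). The difference to Acta1 within each array changed with the reference by 0.32 (95% confidence interval −0.16 to 0.79) for Trim63, by 0.29 (−0.16 to 0.73) for Ankrd2 and by 0.11 (−0.27 to 0.48) for Hspb7, all per 1 log2. All of these intervals include 0, and they also allow slopes well above that of Acta1. The intervals of all 3 slopes included 1 over the 8 arrays. When WT replicate 2 was left out, those of Trim63 and Ankrd2 began at 1.04 and 1.05, above 1. They began at 1.02 and 1.11 when Abhd15 KO replicate 2 was left out. With the mean of the other members in place of the 12 genes, the slopes were 1.58 (1.19 to 1.96), 1.55 (1.26 to 1.85) and 1.32 (1.05 to 1.59). The median slope of the 31 genes was itself 1.12 on that scale, inside the interval of Hspb7 and below those of Trim63 and Ankrd2. Trim63 did differ in slope from Fbxo32, the other ubiquitin ligase gene, by 0.62 (0.28 to 0.97). Against Acta1, the slope of Fbxo32 differed by −0.31 (−0.57 to −0.05), an interval that leaves out 0, unlike that of Trim63. Fbxo32 read 8.73, 7.20 and 6.41 in WT and 6.58, 5.86, 6.84, 7.83 and 7.48 in the labelled KO arrays. Its slope was 0.74 (0.52 to 0.96), and its residual SD of 0.34 lay near the median of the 31 genes. Trim63 minus Fbxo32 was −0.36 log2 in Abhd15 KO replicate 5, −0.42 in WT replicate 1 and −2.95 in WT replicate 3. Probe sets differ in brightness, so only the change of this difference between arrays can be read.

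The other stress and remodelling genes left the line in several of the same arrays. Asb5, an ankyrin repeat and SOCS box protein, read 6.92, 5.08 and 3.05 in WT and 3.75, 2.80, 3.84, 6.11 and 4.90 in the labelled KO arrays, with a slope of 1.20 (0.89 to 1.51). Xirp2, an actin-binding protein of the Xin family, read 6.88, 4.58 and 2.79 in WT and 5.29, 3.26, 4.62, 6.05 and 4.51 in the labelled KO arrays, with a slope of 1.06 (0.68 to 1.43) and a residual SD of 0.62. In Abhd15 KO replicate 1 the departure was 0.52 for Xirp2 and −0.83 for Asb5, so these genes did not depart together everywhere. Xirp1, its relative, ranged from 1.92 to 4.33 and was above the dim limit in 4 arrays only. Of the 7 tested stress and ligase genes, 7, 0 and 2 lay above their line in WT replicates 1 to 3, and 1, 7, 1, 6 and 5 in Abhd15 KO replicates 1 to 5. Of the 24 structural and metabolic genes, 17, 9 and 10 lay above their line in WT and 6, 19, 12, 12 and 13 in the labelled KO arrays. These counts include readings below the dim limit, whose side of the line was not measured. Among the stress and ligase genes these were Ankrd2, Asb5 and Xirp1 in Abhd15 KO replicate 2 and Ankrd2, Xirp1 and Xirp2 in WT replicate 3. Xirp1 was also below it in Abhd15 KO replicates 3 and 5. Among those measured in WT replicate 3, Hspb7 (0.26) and Fbxo32 (0.18) lay above their line and Asb5 (−0.06) and Trim63 (−0.50) below. Few stress and ligase genes were thus above their line in WT replicate 2 and in Abhd15 KO replicates 1 and 3.

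WT replicate 2 and Abhd15 KO replicate 1, which are among these arrays, were the lowest in Angptl8, a secreted protein that feeding induces. Its levels there were 7.95 and 7.90, and elsewhere they were 10.42 to 10.81, with 10.42 in Abhd15 KO replicate 3 and 10.45 in WT replicate 3. Its part in the departures was not tested. Without these arrays the slopes were 1.45 (1.08 to 1.82) for Trim63, 1.42 (1.17 to 1.67) for Ankrd2 and 1.22 (0.98 to 1.47) for Hspb7. Other muscle genes departed in the same directions in several arrays, by means that include readings below the dim limit. For the 28 tested genes other than Trim63, Ankrd2 and Hspb7, the mean residual was 0.17 and −0.18 in WT replicates 1 and 2. It was −0.15 and 0.19 in Abhd15 KO replicates 1 and 2. For 19 tested sarcomere genes outside the list it was 0.31, −0.28, −0.21 and 0.23 in these arrays. Genes of slow and heart muscle departed from the reference in some of the same arrays. The mean residual of 11 tested genes of that list was 0.27 in WT replicate 1 and −0.34 in Abhd15 KO replicate 1, and between −0.18 and 0.15 in the other arrays. With their mean as a further term the slopes were 1.11 (0.12 to 2.10) for Trim63, 0.61 (−0.07 to 1.28) for Ankrd2 and 0.65 (0.01 to 1.29) for Hspb7, and 0 of the 31 genes passed with limma (23 at an unadjusted p under 0.05). That mean was itself highest in WT replicate 1 (0.80) and lowest in Abhd15 KO replicate 2 (−0.47), as the reference was. Both terms thus overlap, these intervals are wider, and the median slope of the 31 was 0.73. Of the 11 slow and heart muscle genes only Myh7, the slow myosin, passed for its slope (1.13, limma adjusted p = 0.0182). Myl3, Tnnc1, Tnni1 and Tnnt1 had slopes from 0.49 to 0.59. The slopes of that list ranged from −0.18 (Tnni3) to 1.13, with a median of 0.28.

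**Figure D4:**
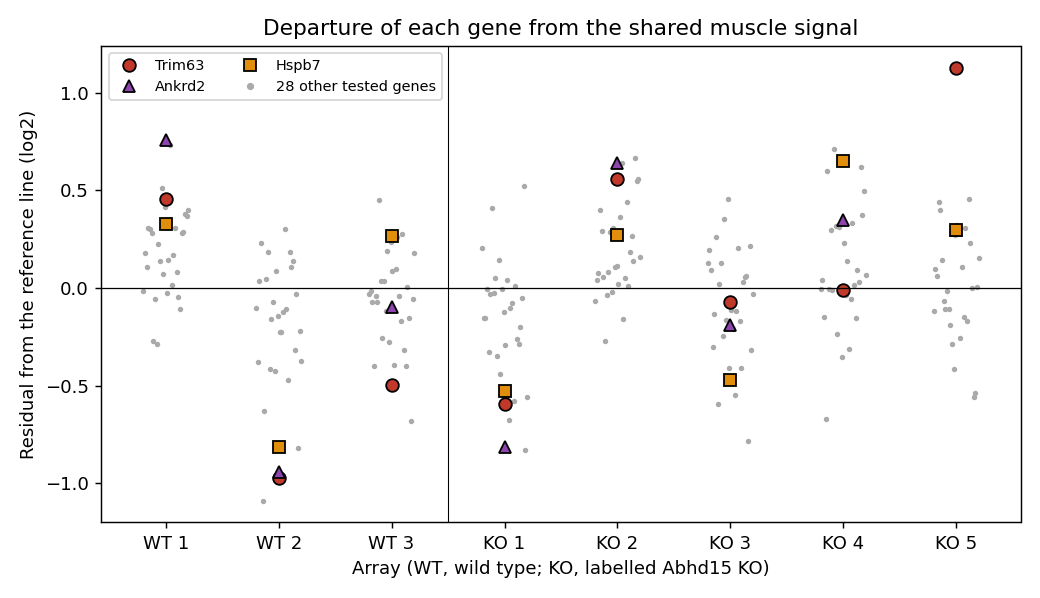
Departure of each tested gene from its own line on the muscle reference (y axis, log2) in each array (x axis). Trim63, Ankrd2 and Hspb7 are drawn as coloured symbols and the 28 other tested genes as grey points. In WT replicate 2 and in Abhd15 KO replicates 1 and 3 all 3 lie below 0, and Trim63 stands apart at 1.13 in Abhd15 KO replicate 5.

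Lists of related genes were placed on the same scale. Of 19 tested sarcomere genes outside the 32, 6 passed for a positive slope with limma (Myom1, Myom2, Nrap, Mypn, Pdlim3 and Ankrd23), and their median slope was 0.45. Myom1 and Myom2, which crosslink thick filaments, had slopes of 0.84 and 0.76, and Pdlim3, a Z disc protein, 0.66. Csrp3, Myom3 and Smpx scattered most about their lines, with residual SDs of 0.63, 0.59 and 0.57. Csrp3, a stretch-responsive Z disc protein, was 6.54 in WT replicate 1, 6.00 in Abhd15 KO replicate 4 and 3.63 to 4.91 elsewhere. None of these 19 was as steep as Hspb7.

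Among 23 tested FOXO and glucocorticoid responsive genes, 1 passed for the slope with limma. This was Trim54, a relative of Trim63 at the sarcomere, which read 5.81, 4.12 and 3.10 in WT and 4.31, 2.78, 3.06, 4.42 and 3.73 in the labelled KO arrays (slope 0.77, adjusted p = 0.0349). Ddit4, an inhibitor of the growth kinase mTOR, scattered most, with a residual SD of 1.15. It read 6.13, 5.71 and 4.54 in WT and 6.75, 5.55, 4.35, 4.35 and 7.19 in the labelled KO arrays, so it was highest in Abhd15 KO replicate 5, where Trim63 lay farthest above its line. It was also high in Abhd15 KO replicate 1, where Trim63 lay below its line. Foxo1 and Foxo3, the factors themselves, had slopes of −0.02 and 0.02, and Mt2 and Fbxo30 slopes of 0.21 each.

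Among 10 tested small heat shock proteins and co-chaperones, 0 passed for the slope with limma. Cryab and Hspb6, which muscle also makes, came closest with slopes of 0.48 (adjusted p = 0.0587) and 0.36 (0.106). The inducible chaperones Hspa1a and Hspa1b had slopes of 0.17 and 0.25 and residual SDs of 0.65, and were highest in WT replicate 2, at 9.09 and 8.54, where Hspb7 lay farthest below its line. Hspb8 and Hsph1 had slopes of 0.01 and −0.16. Among 6 tested neuromuscular and satellite cell genes 0 passed with limma. Musk, a receptor of the nerve-muscle junction, and Myf6, a myogenic factor, had residual SDs of 0.72 and 0.65 and were highest in WT replicate 1 (4.31 and 5.19) and Abhd15 KO replicate 5 (3.80 and 3.97). Musk and Myf6 were each below the dim limit in 5 arrays. Chrnb1 and Pax7 had slopes of 0.08 and −0.22, and Myod1 and Myog were not above it in enough arrays to be tested.

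Brown adipocyte genes had slopes near 0. Of 12 tested genes, among them Ucp1, Cidea, Adipoq and Plin1, 0 passed for the slope with limma, and the slopes ranged from −0.10 (Dio2) to 0.06 (Ppara). Dio2, Ppargc1a and Elovl3 scattered most, and all 3 were lowest in Abhd15 KO replicate 3. Fewer muscle cells in a sample and less muscle RNA per cell cannot be told apart in bulk tissue.

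Between the groups, the genes were on average lower in the labelled KO arrays, but within a spread far larger than the difference. Of 31 tested genes 30 were lower and 1 (Myl2) higher, with a median difference of −0.48 log2, against 48.3% lower and a median of 0.01 over all tested genes. With limma 0 of them passed, as did 0 of 13223 genes (0%). The 31 included 0 genes at an unadjusted p under 0.05, against 3.99% of all genes, and 0 genes whose groups did not overlap, against 2.77%. Acta1 was 9.10 ± 1.51 in WT (SD, n = 3) and 8.59 ± 1.13 in the labelled KO arrays (SD, n = 5), which differ by −0.52 (95% interval −2.20 to 1.17, two-sided exact permutation p = 0.571). Trim63 was 5.75 ± 2.44 and 5.51 ± 1.46, differing by −0.23 (−2.68 to 2.21, exact permutation p = 0.893). Ankrd2 differed by −0.61 (−2.93 to 1.72, exact permutation p = 0.661) and Hspb7 by −0.54 (−2.54 to 1.46, exact permutation p = 0.625). The largest difference in size was that of Myoz2, −0.98 (−2.74 to 0.78). The direction turned when WT replicate 1 was left out, with 6 of the 31 lower and a median of 0.20. Leaving out WT replicate 3 gave a median of −1.26, and leaving out Abhd15 KO replicate 2 or 4 gave −0.11 or −0.76. Without WT replicate 3, 7 of the 31 had an unadjusted p under 0.05 with limma, against 590 of 13050 genes, and 0 genes passed after adjustment. The muscle reference itself was 0.36 ± 1.45 in WT and −0.21 ± 1.05 in the labelled KO arrays.

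At equal muscle reference, the direction between the groups was mixed. With the reference as a further term 14 of the 31 were lower (49.1% of all genes) and 17 higher, with a median of 0.03 against 0.00 over all genes. With limma 0 of 13223 genes (0%) and 0 of the 31 passed, and 2 of the 31 had an unadjusted p under 0.05, against 4.37% of all genes. These were Myl2, at 0.55 (0.14 to 0.96), and Ldb3, at −0.33 (−0.64 to −0.02), named for their number after their values were seen. Trim63 differed by 0.58 (−0.43 to 1.59), Ankrd2 by 0.16 (−0.85 to 1.17), Hspb7 by 0.13 (−0.72 to 0.97) and Acta1 by 0.08 (−0.20 to 0.36). Without Abhd15 KO replicate 5, the difference of Trim63 was 0.31. Without WT replicate 2 that of Trim63 was 0.27, that of Ankrd2 −0.25 and that of Hspb7 −0.23, and without WT replicate 1 they were 0.95, 0.60 and 0.33. Without WT replicate 3 they were 0.52, 0.19 and 0.54, and without Abhd15 KO replicate 1 they were 0.80, 0.40 and 0.28. Leaving out Abhd15 KO replicate 4 gave −0.12 for Hspb7, so the sign of the small differences of Ankrd2 and Hspb7 changed with single arrays.

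**Figure D5:**
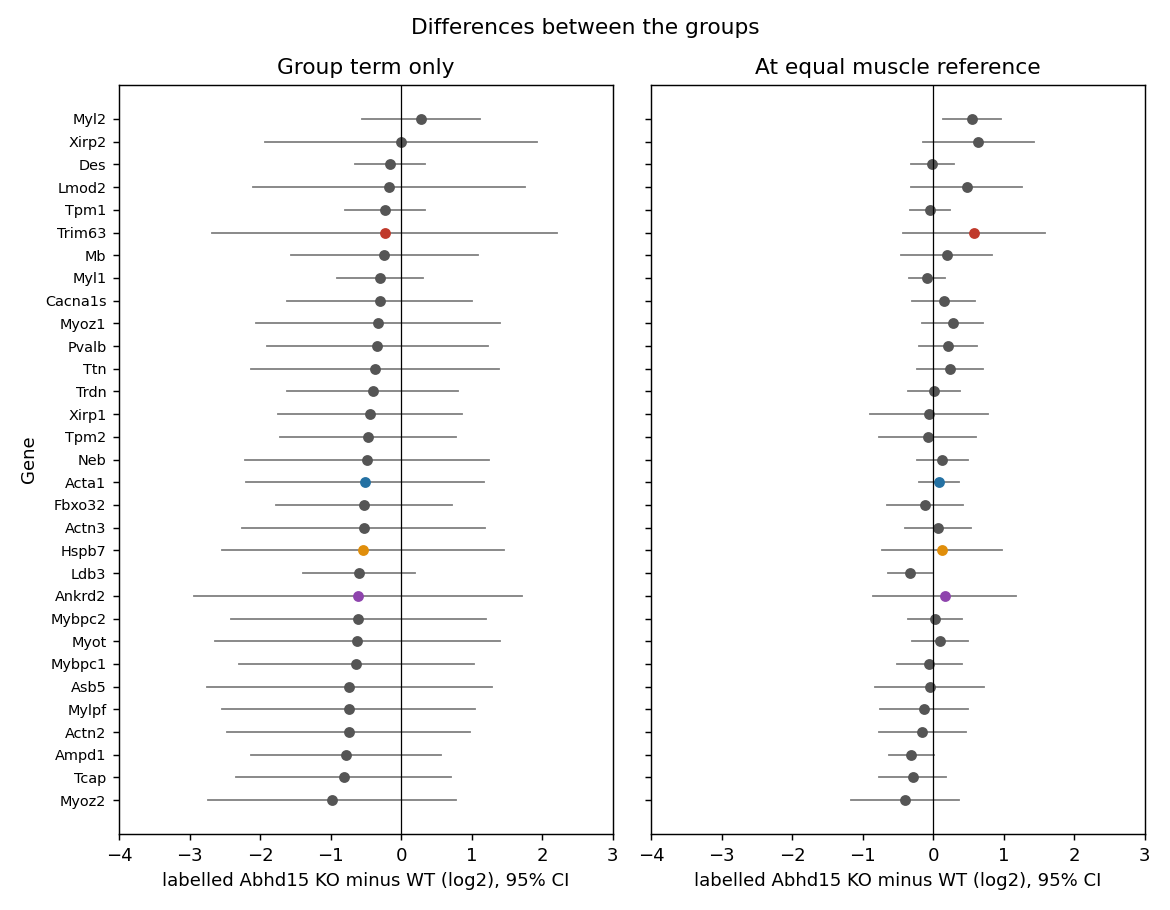
Difference between the labelled KO arrays and WT (x axis, log2) for the 31 tested genes, with 95% confidence intervals from limma, by group alone (left) and with the muscle reference as a further term (right). Left, 30 of 31 points lie below 0 and every interval includes 0. Right, the points scatter around 0, and the intervals of Myl2 and Ldb3 leave it out before any adjustment.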

How the data were processed

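RNA of each mouse was hybridised to 1 array. The authors deposited log2 values. RMA and oligo are named per the submitters' processing notes, and the series' design text names Expression Console. RMA corrects background, quantile-normalizes probes and summarises probe sets, which can hide a shift common to most genes. The genome build of the probes was not given in the sources used here.

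Probe sets (41345) were named by the platform annotation (23521 with 1 symbol, 1814 with several, 16010 unnamed) and checked by Entrez identifier against RefSeq GRCm38.p6 (23328 matched). The brightest stood for each gene. The dim limit is the 95th percentile of 1400 olfactory and vomeronasal receptor probe sets. limma 3.58.1 in R 4.3.3 (lmFit, eBayes) was fitted over all tested genes with Benjamini-Hochberg adjustment at 0.05. The reference genes were left out of the slope fit. Differences are labelled KO arrays minus WT. Confidence intervals are moderated and not adjusted. Exact permutation used the 56 splits into 3 and 5, two-sided, with 0.0179 as the smallest p. Arrays give no depth. The labels do not say whether replicates were separate litters. The steps were tested on simulated data.

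The members and lists were chosen with earlier results of these data known. Named are all members and, of each list, the 3 genes of largest residual SD and the 3 of lowest p. The labels do not say that replicate numbers pair mice. Alternatives varied the block, filter, normalization, centring, probe sets, variance model, reference and arrays. Both array pairs left out and the slow muscle term were added after the data were seen.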

Additional observations from a re-analysis of the deposited data

Results flagged for a closer look

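Mybpc2, a myosin binding protein of fast fibres, read 3.10 log2 in Abhd15 KO replicate 2, far below the other labelled KO arrays (5.25 to 6.01). The gap was 0.738 of the whole range of that group, more than Dixon's 95% critical value for 5 samples. It was the only 1 of 32 genes to pass, where chance gives about 1 in 20 groups. That array was also the lowest in 20 of the 24 genes above the dim limit in every array, and Mybpc2 lay within 0.02 log2 of its line on the muscle reference there.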

How the results depend on the processing

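Of 153 comparisons with an alternative setting, 127 kept their direction and their side of the threshold or stayed within the limits of a count. The count of genes called between the groups was 0 with limma under every alternative run, with or without the reference as a term. With the replicate number as a block the member count for the slope was 0 (30 of 31 at an unadjusted p under 0.05), the slopes were 1.18 (Trim63), 1.17 (Ankrd2) and 0.95 (Hspb7), and the median difference at equal reference was −0.041, against −0.97 by group alone. With that block the differences at equal reference were 0.16 (Trim63), −0.31 (Ankrd2) and −0.62 (Hspb7). By group alone, 7 of the 31 then had an unadjusted p under 0.05 with limma, against 422 of 13223 genes. The replicate numbers gave correlations of deviations of −0.26, −0.10 and 0.02 in the 3 shared numbers. This fit thus spends residual degrees of freedom on numbers that are not said to pair mice. Without the arrays highest and lowest in the reference the member count was 0, the slopes were 1.49, 1.34 and 1.15 in the same order, and the median group difference was 0.59. With slow and heart genes as a further term the member count was 0 and the slopes were 1.11, 0.61 and 0.65. This term rose and fell much as the reference did. The slope intervals of Trim63, Ankrd2 and Hspb7 were wider with it, and the median slope of the 31 was 0.73. With the other members as reference the median at equal reference was −0.032 and the slopes were 1.58, 1.55 and 1.32.

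Leaving out 1 array at a time, the member count ranged from 15 to 27, the slopes from 1.22 to 1.61 (Trim63), 1.09 to 1.61 (Ankrd2) and 1.05 to 1.27 (Hspb7), the median group difference from −1.26 to 0.20, and that at equal reference from −0.063 to 0.11. Fewer arrays were fitted in each. The cause was not tested further. With the filter of all 8 arrays Ankrd2 was not tested. Readings below the dim limit leave the low end of Myl2, Myoz2, Ampd1, Xirp1, Xirp2, Asb5 and Ankrd2 unmeasured.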

Other observations

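Genes outside the fixed lists also followed the muscle reference as steeply as the sarcomere genes. They were chosen for naming after their slopes were known. Ckmt2, the mitochondrial creatine kinase of striated muscle, had a slope of 1.13 (95% confidence interval 0.99 to 1.27, limma adjusted p = 7.5e-05). Ppp1r3a, which targets a phosphatase to glycogen in muscle, had a slope of 1.05, and the muscle myosin kinases Mylk4 and Mylk2 slopes of 1.04 and 1.02. Cox6a2, the cytochrome c oxidase subunit of heart and skeletal muscle, had a slope of 0.91 (0.78 to 1.04). Usp13, a ubiquitin protease, had a slope of 1.02 (0.73 to 1.31).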
